A study of Homo sapiens with 9 samples.

Results

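The gene *PTGR1* encodes prostaglandin reductase, an NADPH-dependent enzyme that reduces reactive carbonyls and inactivates prostaglandins and leukotrienes, and it is a known target of the transcription factor NRF2. It was followed together with *NFE2L2*, which encodes NRF2, with *KEAP1*, its inhibitor, and with 7 further NRF2 target genes, namely *NQO1*, *TXNRD1*, *GCLM*, *GCLC*, *SRXN1*, *HMOX1* and *SLC7A11*. These are 10 of the 19984 genes in the count table, found by symbol. *PTGR1* was chosen by its rise in del-4, so its values are given as a description with no test. The other 9 genes are known genes of the NRF2 pathway and were tested. This list was also drawn up with earlier results of these data known, so the p-values are not independent of that choice. The question was whether these genes rose with *PTGR1*.

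The cells were LNCaP, a human prostate cancer cell line of luminal type. RNA-seq was performed on polyadenylated RNA from 2 clones named del-4 and del-56, in which the promoter and the first exons of the long noncoding RNA *EPCART* had been deleted with CRISPR-Cas9, and from 1 clone without the deletion (WT). Each clone was cultured in 3 replicates for 48 h in RPMI medium with fetal bovine serum and no other treatment. Each group is a single clone, so the deletion and any other difference between clones cannot be told apart, and the p-values measure the spread between cultures of a clone.

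The normalized count is the number of reads on a gene divided by a size factor of its library, and the libraries held between 91074556 and 118877134 reads on genes. The luminal prostate markers fixed for LNCaP, such as *KLK3*, were present in all libraries, and *PTPRC*, *PECAM1*, *KRT5* and *TP63* were at or below a normalized count of 9.66. The fibroblast marker *COL1A1* was between 937 and 1359 and was higher in both deletion clones (log2 fold change 0.33 in del-4, limma adjusted p = 0.0037, and 0.34 in del-56, limma adjusted p = 0.0018), and its part in the results below was not tested. In such bulk samples, fewer cells expressing a gene and less RNA per cell cannot be told apart. The values themselves showed that a gene with another gene nested inside it had at least as many reads, within 2%, as the nested gene in 99.1% of 324 pairs on opposite strands and 98.8% of 512 pairs on the same strand. Genes with overlapping spans therefore share reads, and overlaps over 100 bases are stated for the genes described.

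In unstressed cells, KEAP1 holds NRF2 and hands it to a CUL3 and RBX1 ubiquitin ligase for degradation. Electrophiles and oxidants modify cysteines of KEAP1, after which NRF2 accumulates, pairs with a small MAF protein and binds antioxidant response elements in the promoters of genes for quinone and carbonyl reduction, glutathione synthesis, the thioredoxin system, heme breakdown and NADPH supply. NRF2 is controlled mainly at the protein level, so the activity of the pathway is usually read from its targets rather than from the *NFE2L2* transcript.

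The core of the antioxidant response element, TGACNNNGC, was searched on both strands in promoter windows from RefSeq (GRCh38.p14), each with 250 bases before and 50 after the annotated start. It may overlap the AP-1 site TGACTCA, which was searched as well. A window was given for 8 of the 10 genes, all but *HMOX1* and *SLC7A11*. The core was found in 2 of these 8, *TXNRD1* and *GCLM*, and in 13.6% of all 27305 promoter windows, and TGACTCA in 0 of the 8 and 4.92% of all windows. The windows of *PTGR1* and *NQO1* held neither motif, which says only that these letters are not in those stretches. Of the wider list of NRF2 targets described later, 23 had a window, and 6 of these held the core, beside 13.6% of all windows. The matches of *TXNRD1* and *GCLM* are shown, with those of *GPX2* and *ME1*, a pair of these further targets whose values in del-4 differed in sign. The *GPX2* value is uncertain, since its call was lost in several settings and its reads cannot be told apart from those of *CHURC1* and *CHURC1-FNTB*. The matches of *CBR1*, *PIR*, *FECH* and *PGD* are not shown. In del-4 these genes differed from WT by -0.02, 0.095, 0.14 and 0.31 on the log2 scale. Whether a match goes with a rise was not tested. Capitals mark the core, and each sequence includes 10 bases on either side.
TXNRD1, chr12:104215670-104215698, plus strand: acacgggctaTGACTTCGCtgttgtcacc
TXNRD1, chr12:104215761-104215789, minus strand: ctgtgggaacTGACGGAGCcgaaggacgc
GCLM, chr1:93909446-93909474, plus strand: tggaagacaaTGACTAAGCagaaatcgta
GPX2, chr14:64942849-64942877, plus strand: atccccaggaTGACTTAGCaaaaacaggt
ME1, chr6:83431170-83431198, minus strand: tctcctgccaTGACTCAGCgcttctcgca
ME1, chr6:83431022-83431050, plus strand: gctgctggggTGACGGTGCtgactgcagc
With the first transcribed base counted as 0, the first match of *TXNRD1* spans bases -99 to -91 and the second bases -8 to 0, the match of *GCLM* bases -34 to -26, that of *GPX2* bases -122 to -114 and those of *ME1* bases -137 to -129 and 11 to 19. The first match of *ME1* also contains the AP-1 letters.

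*PTGR1* (ENSG00000106853.20) lies on the minus strand of chr9:111549722-111599893 (GRCh38). Its normalized counts were 14573, 12988 and 13538 in del-4, 7857, 8078 and 8100.1 in del-56, and 6759, 7063 and 6719 in WT. The libraries of the 3 clones did not overlap, with del-4 far above the others and del-56 just above WT. With SD over 3 cultures, the means were 13699 ± 805 for del-4, 8012 ± 134 for del-56 and 6847 ± 188 for WT. Against WT, *PTGR1* was higher by 1.00 on the log2 scale for del-4 (SE 0.043), and by 0.23 for del-56 (SE 0.039), which is 1.17-fold. The gene *ZNF483*, which encodes a zinc finger protein, runs through 28123 of the 50172 bases of the *PTGR1* span on the opposite strand, and its own counts were higher than in WT by 0.91 (del-4) and 0.31 (del-56) on the log2 scale. Reads on the shared stretch cannot be assigned to either gene. Shared reads cannot exceed the *ZNF483* count, so the *PTGR1* count less the whole *ZNF483* count is the lowest number of reads outside *ZNF483*. This was 8791, 7757 and 8053 in the del-4 libraries, above the highest full *PTGR1* count in WT, 7063, so *ZNF483* reads cannot account for the whole rise in del-4. In the del-56 libraries it was 4203, 4468 and 4533, below every full *PTGR1* count in WT, so no such bound is given for that clone.

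Of the other genes, 3 rose in del-4 and 6 did not. In this clone, 4 of the 9 tested genes passed an adjusted p under 0.05 (limma), of which *TXNRD1*, *GCLM* and *SLC7A11* were higher and *HMOX1* was lower than in WT. Over all 17401 genes tested in this comparison, 20.5% were called higher, 20.2% lower and 40.7% in either direction, so the share of the 9 genes that was called was near the background. With libraries rescaled to the same total, 3 of the 9 were called higher and 2 lower. Over all genes 2364 were then called higher and 4932 lower, against 3565 and 3517 before rescaling. The median of the log2 fold changes was 0.028 for the 9 genes, beside -0.0028 over all tested genes.

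In del-56, 8 of the 9 genes passed, with *GCLM* and *GCLC* higher and *NFE2L2*, *KEAP1*, *NQO1*, *SRXN1*, *HMOX1* and *SLC7A11* lower than in WT. The background was 19.2% called higher, 20.5% lower and 39.7% in either direction, of 17481 genes. Over the 9 genes the median was -0.13, and over all tested genes -0.0011. The comparisons of del-4 and del-56 with WT share the WT libraries.

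Directly compared, del-4 was called higher than del-56 in 6 of the 9 genes and lower in 1, *GCLC*. Here 10.9% of 17447 genes were called higher, 9.0% lower and 19.9% in either direction. With libraries rescaled to the same total, the counts for the 9 genes were again 6 and 1, while 1378 of all genes were called higher and 2379 lower, against 1898 and 1571 before. The groups did not overlap in 5 of the 9 genes between del-4 and WT, where 49.5% of all genes did not, in 8 of 9 between del-56 and WT, where 48.7% did not, and in 8 of 9 between del-4 and del-56, where 34.7% did not.

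**Figure D1:**
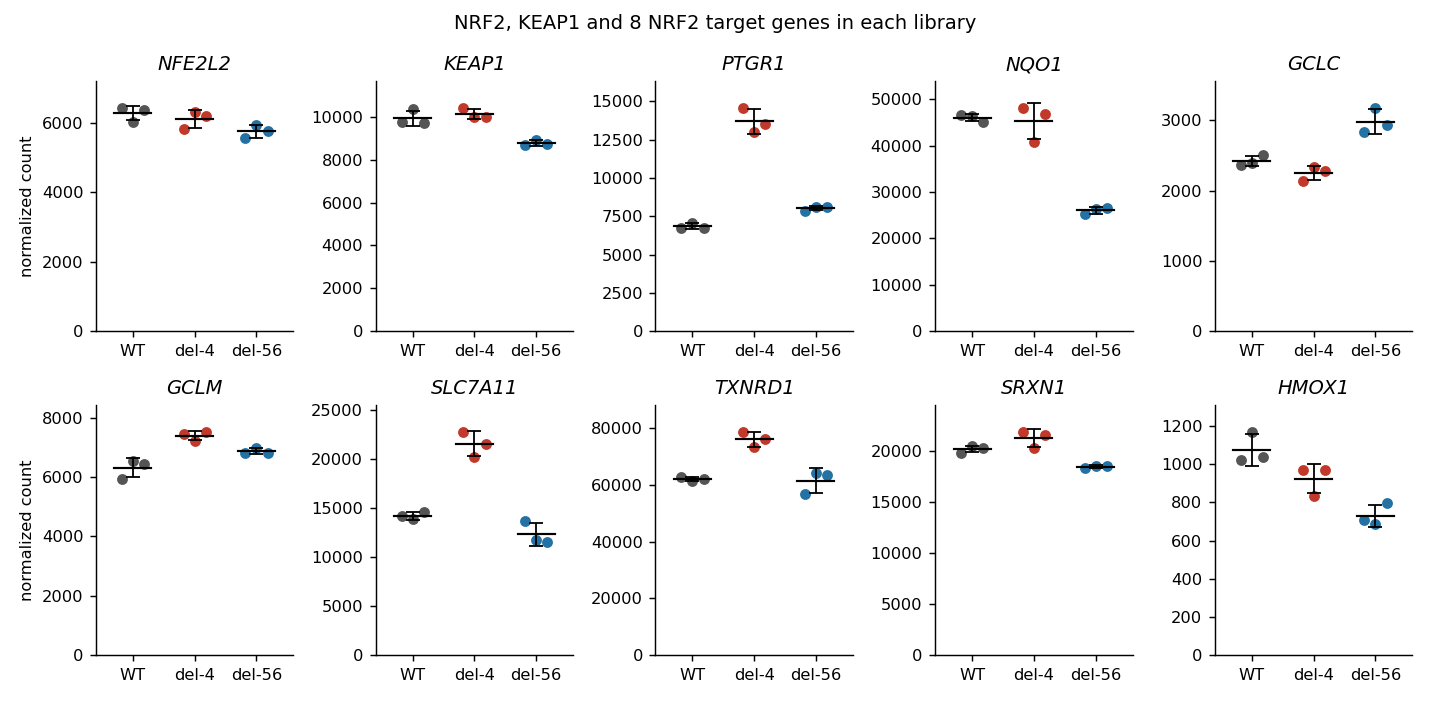
Normalized counts (y axis, from 0) of the 10 genes in each of the 3 libraries of WT, del-4 and del-56 (x axis); points are libraries, horizontal lines are means and error bars are SD. *PTGR1*, *SLC7A11* and *TXNRD1* are highest in del-4, whereas the *NQO1* points of del-4 surround those of WT, and those of del-56 are lower.

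The transcript of NRF2 itself differed little. *NFE2L2* (ENSG00000116044.16, minus strand of chr2:177218667-177392756) had normalized counts of 5824, 6301 and 6191 in del-4, 5559.7, 5928 and 5745 in del-56 and 6423, 6030.4 and 6372 in WT. The del-4 libraries overlapped with those of WT (log2 fold change -0.04, SE 0.043, limma adjusted p = 0.50), and all del-56 libraries were below WT (log2 fold change -0.13, SE 0.043, limma adjusted p = 0.027). This call in del-56 did not hold without replicate 1 of del-56 (adjusted p = 0.0703), replicate 3 of del-56 (0.0721), WT replicate 1 (0.0838) or WT replicate 3 (0.100), nor with quantile normalization (0.0645). Over the tested genes of chromosome 2 the median of this difference was -0.16 for del-56 and -0.15 for del-4. *HNRNPA3*, with a mean normalized count of 53327 over the 9 libraries, overlaps 5293 bases of the *NFE2L2* span, so part of the *NFE2L2* reads cannot be told apart from it.

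*KEAP1* (ENSG00000079999.14, minus strand of chr19:10486125-10503558) had normalized counts of 10424, 9978 and 10005 in del-4, 8690.2, 8937 and 8719 in del-56 and 9748, 10347 and 9736 in WT. Del-4 and WT overlapped, and del-56 was below both. Against WT, *KEAP1* differed by 0.03 on the log2 scale in del-4 (SE 0.038, limma adjusted p = 0.60) and -0.18 in del-56 (SE 0.039, limma adjusted p = 0.0016). The difference between del-4 and del-56 was 0.21 on the log2 scale (SE 0.038, limma adjusted p = 0.00064).

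*NQO1* encodes a quinone reductase whose transcript is widely used as a readout of NRF2. The gene (ENSG00000181019.13) lies on the minus strand of chr16:69706996-69726668. Its normalized counts were 48162, 40864 and 46812 in del-4, 25203, 26314 and 26660.02 in del-56 and 46625, 46344 and 45216 in WT. The del-4 libraries lay on both sides of the WT libraries, while all del-56 libraries were far below both. On the log2 scale, *NQO1* differed from WT by -0.03 in del-4 (SE 0.049, limma adjusted p = 0.69) and -0.82 in del-56 (SE 0.037, limma adjusted p = 8.9e-11), the latter a 1.77-fold lower level. Del-4 exceeded del-56 by 0.79 on the log2 scale (SE 0.050, limma adjusted p = 2.1e-09). The genes around *NQO1* were themselves lower in both deletion clones. The 136 tested genes with a start within 5 Mb of it had a median of -0.33 (del-4), and the corresponding median was -0.31 (del-56), both as log2 fold changes. Over chromosome 16 the medians were -0.34 and -0.31. Copy number was not measured here, and its part in these values was not tested.

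Glutathione synthesis is limited by the glutamate-cysteine ligase, which has a catalytic subunit, GCLC, and a modifier subunit, GCLM. *GCLC* (ENSG00000001084.13, minus strand of chr6:53497341-53616970) had normalized counts of 2138, 2334 and 2283 in del-4, 2831, 3178 and 2928 in del-56 and 2361, 2392 and 2502 in WT. It was highest in del-56, in which *NQO1* was lowest, and lowest in del-4. Relative to WT it differed by -0.10 on the log2 scale in del-4 (SE 0.054, limma adjusted p = 0.14) and 0.30 in del-56 (SE 0.056, limma adjusted p = 0.00045), and the difference between del-4 and del-56 was -0.40 (SE 0.058, limma adjusted p = 6.5e-05). With libraries rescaled to the same total, the value in del-4 was -0.17 and was called lower (limma adjusted p = 0.0256).

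*GCLM* (ENSG00000023909.10, minus strand of chr1:93885199-93909456) had normalized counts of 7448, 7228 and 7541 in del-4, 6815, 7002 and 6826 in del-56 and 5944, 6540.03 and 6461 in WT. All libraries of both deletion clones were above those of WT. *GCLM* was higher by 0.23 on the log2 scale in del-4 (SE 0.042, limma adjusted p = 0.00026) and by 0.12 in del-56 (SE 0.044, limma adjusted p = 0.032). The latter call was lost without WT replicate 1 (adjusted p = 0.139) and without replicate 2 (0.105) or 3 (0.0726) of del-56, and with the same total, where the value was 0.096 (0.126). The 48 tested genes within 5 Mb of *GCLM* had a median of 0.16 for del-4, and of 0.17 for del-56. In del-4, *GCLM* thus rose while *GCLC*, with all libraries below WT, was called lower after rescaling to the same total but not before.

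*SLC7A11* encodes the light chain of the cystine and glutamate exchanger, which imports the cystine needed for glutathione. The gene (ENSG00000151012.13) lies on the minus strand of chr4:138164097-138242349. Its normalized counts were 22833, 20262 and 21609.6 in del-4, 13675, 11701 and 11554 in del-56 and 14175, 13851 and 14615 in WT. Every del-4 library was far above the libraries of both other clones, and every del-56 library was below WT. It rose by 0.60 on the log2 scale in del-4 (SE 0.042, limma adjusted p = 2.6e-09), a 1.52-fold higher level, and fell by 0.21 in del-56 (SE 0.054, limma adjusted p = 0.0049). Del-4 exceeded del-56 by 0.81 on the log2 scale (SE 0.056, limma adjusted p = 7.1e-09).

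The thioredoxin system was represented by *TXNRD1*, which encodes the cytosolic thioredoxin reductase, and *SRXN1*, which encodes sulfiredoxin, the enzyme that repairs overoxidized peroxiredoxins. *TXNRD1* (ENSG00000198431.16, plus strand of chr12:104215779-104350307) had normalized counts of 78842, 73404 and 76045 in del-4, 56652, 64329 and 63676 in del-56 and 62670.4, 61512 and 62042 in WT. Only the del-4 libraries stood clear of WT. *TXNRD1* rose by 0.29 on the log2 scale in del-4 (SE 0.038, limma adjusted p = 6.3e-06) and had a value of -0.01 in del-56 (SE 0.047, limma adjusted p = 0.84). With quantile normalization the value in del-4 was 0.15 (limma adjusted p = 0.000988). *EID3*, with a mean normalized count of 10.8 over the 9 libraries, lies within its span.

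*SRXN1* (ENSG00000271303.2, minus strand of chr20:646615-653200) had normalized counts of 21856, 20209 and 21541 in del-4, 18269.7, 18500.1 and 18515 in del-56 and 19779.8, 20399.95 and 20242 in WT. The del-4 libraries overlapped with WT, and del-56 was below both. Its differences from WT on the log2 scale were 0.07 in del-4 (SE 0.037, limma adjusted p = 0.13) and -0.13 in del-56 (SE 0.034, limma adjusted p = 0.0074). Without del-4 replicate 2 the difference of del-4 was 0.11 (limma adjusted p = 0.0277), and with the same total it was 0.00409 (limma adjusted p = 0.943). A further gene model, ENSG00000270299, spans nearly all of *SRXN1* on the same strand, and their reads cannot be told apart.

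*HMOX1* encodes heme oxygenase, which opens the heme ring and is induced by NRF2 and by heme itself through loss of the repressor BACH1. The gene (ENSG00000100292.18) lies on the plus strand of chr22:35380361-35394214. Its normalized counts were 972, 835 and 968 in del-4, 708, 685 and 795 in del-56 and 1020.5, 1172 and 1037 in WT. The order WT, del-4, del-56 held with no overlap between the libraries of the clones. *HMOX1* differed from WT by -0.22 on the log2 scale in del-4 (SE 0.086, limma adjusted p = 0.049) and -0.56 in del-56 (SE 0.090, limma adjusted p = 0.00012). The call in del-4 was lost without WT replicate 2 (adjusted p = 0.222), WT replicate 3 (0.0829) or replicates 2 (0.206) or 3 (0.0619) of del-4, in DESeq2 (0.0525), with a pseudocount of 5 (0.0533), without the filter (0.061), with quantile normalization (0.0819) and in the joint fit of all 9 libraries (0.0642). The difference between del-4 and del-56 was 0.34 (SE 0.094, limma adjusted p = 0.016), and this was lost without replicate 1 (0.0807) or 3 (0.0848) of del-4 or replicate 2 of del-56 (0.0706).

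**Figure D2:**
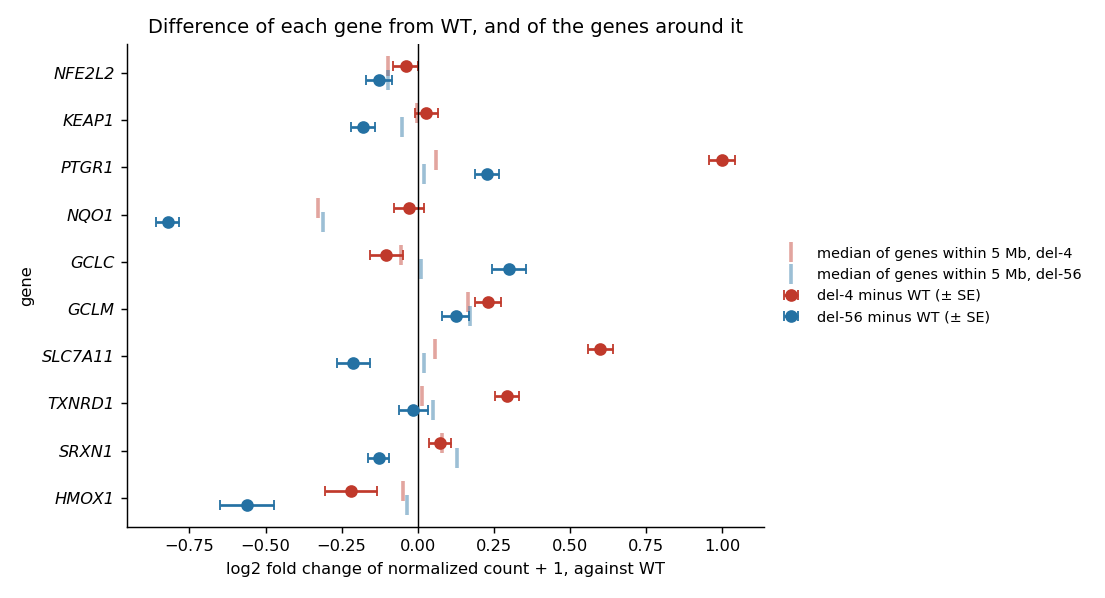
Log2 fold change of normalized count plus 1 against WT (x axis) for the 10 genes (y axis); points are del-4 and del-56 with SE, and short vertical marks are the medians of the tested genes with a start within 5 Mb. *PTGR1* and *SLC7A11* lie far to the right in del-4, at 1.00 and 0.60, and *NQO1* lies at -0.82 in del-56 while the genes around it have medians of -0.33 (del-4) and -0.31 (del-56).

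Per kilobase of merged exons, the levels of the 10 genes kept a similar order in the clones. This scale divides by exon length only, whereas reads on introns are counted too, so it is approximate. In WT the normalized count per kilobase was 15504 for *NQO1*, 9251 for *TXNRD1*, 7967 for *SRXN1*, 2783 for *KEAP1*, 1816 for *PTGR1*, 1474 for *SLC7A11*, 1164 for *GCLM*, 467 for *HMOX1*, 419 for *NFE2L2* and 281 for *GCLC*. The places of *PTGR1* and *KEAP1* were exchanged in del-4, with 3634 ± 213 and 2837 ± 70.0 per kilobase (SD, n = 3). The *PTGR1* level includes reads shared with *ZNF483*, so its place is uncertain. In del-4 the *PTGR1* count less the whole *ZNF483* count averaged 8200 over 3770 exon bases. The *KEAP1* count averaged 10136 over 3573 bases, so this exchange is not established. In del-56 the places of *NQO1* and *TXNRD1* were exchanged, but their levels per kilobase, 8771 ± 256 and 9173 ± 634 (SD, n = 3), did not differ beyond their spread. *HMOX1* was last in del-56, at 316 ± 25.3 per kilobase, below *NFE2L2* at 384 ± 12.3 and *GCLC* at 346 ± 20.8 (SD, n = 3), of which *GCLC* and *HMOX1* did not differ beyond their spread. *SLC7A11* and *GCLM* in del-56, at 1276 and 1268 per kilobase, and *NFE2L2* and *HMOX1* in del-4, at 408 ± 16.7 and 401 ± 33.9 (SD, n = 3), did not either.

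Likeness to *PTGR1* was measured as the root mean square difference of the log2 values over the 9 libraries, with each gene centred on its own mean, over the 13085 genes whose mean reached 100. As *PTGR1* itself chose this pattern, the likeness is a description. The closest were *H2BC21*, a histone gene, at 0.042, *TMTC2*, a mannosyltransferase gene, at 0.053, *ASPH*, an aspartyl hydroxylase gene, at 0.068, *ZNF483* at 0.073 and *DSC2*, which encodes a desmosomal cadherin, at 0.079. *ASPH* shares 1090 bases with *CLVS1*. None of these 5 is on the lists of NRF2 genes used here, and *ZNF483* shares reads with *PTGR1*. As means with SD over 3 cultures, the normalized count of *ASPH* was 44076 ± 942 (WT), 54542 ± 838 (del-56) and 85852 ± 1661 (del-4). That of *DSC2* was 28159 ± 692 (WT), 30157 ± 526 (del-56) and 51066 ± 1327 (del-4). Of the 9 other genes of the NRF2 group, *SLC7A11* was the most like *PTGR1*, at rank 116 with a difference of 0.21. In del-56, however, *SLC7A11* was below WT by 0.21 on the log2 scale, while the *PTGR1* counts were above it by 0.23. *TXNRD1* was at rank 456, *GCLM* at rank 1184, *SRXN1* at rank 2520 and *KEAP1* at rank 3520. *NFE2L2* was at rank 6341, *NQO1* at rank 9457, *HMOX1* at rank 10182 and *GCLC* at rank 11097.

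The genes around *PTGR1* on chromosome 9 were examined for a change of the whole region. Of 14 protein-coding genes with a start within 1 Mb of the *PTGR1* start, 12 were tested in both deletion clones. In del-4, 6 of the 12 were called higher and 0 lower (limma adjusted p under 0.05), with log2 fold changes between -0.73 and 0.91 and a median of 0.13. Of all tested genes, 20.5% were called higher in del-4 and 19.2% in del-56. In del-56, 3 of the 12 were called higher, a share near that background, and 0 lower, with values between -1.21 and 0.31 and a median of 0.026. Apart from *ZNF483*, the called genes in del-4 were *MUSK*, *DNAJC25-GNG10*, *GNG10*, *UGCG* and *KIAA1958*, of which *DNAJC25-GNG10* is a readthrough gene that shares reads with *GNG10*. *MUSK*, a receptor kinase gene of the muscle endplate, had low normalized counts of 57.7 ± 8.04 (WT), 42.8 ± 17.5 (del-56) and 98.8 ± 12.4 (del-4; SD, n = 3 each), and was higher in del-4 by 0.77 on the log2 scale (SE 0.25, limma adjusted p = 0.020). In del-4 and del-56, the differences from WT were 0.29 and 0.15 for *KIAA1958*, 0.26 and 0.19 for *GNG10*, a G protein subunit gene, and 0.17 and 0.10 for *UGCG*, the glucosylceramide synthase gene. Over 58 tested genes within 5 Mb the median in del-4 was 0.06.

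**Figure D3:**
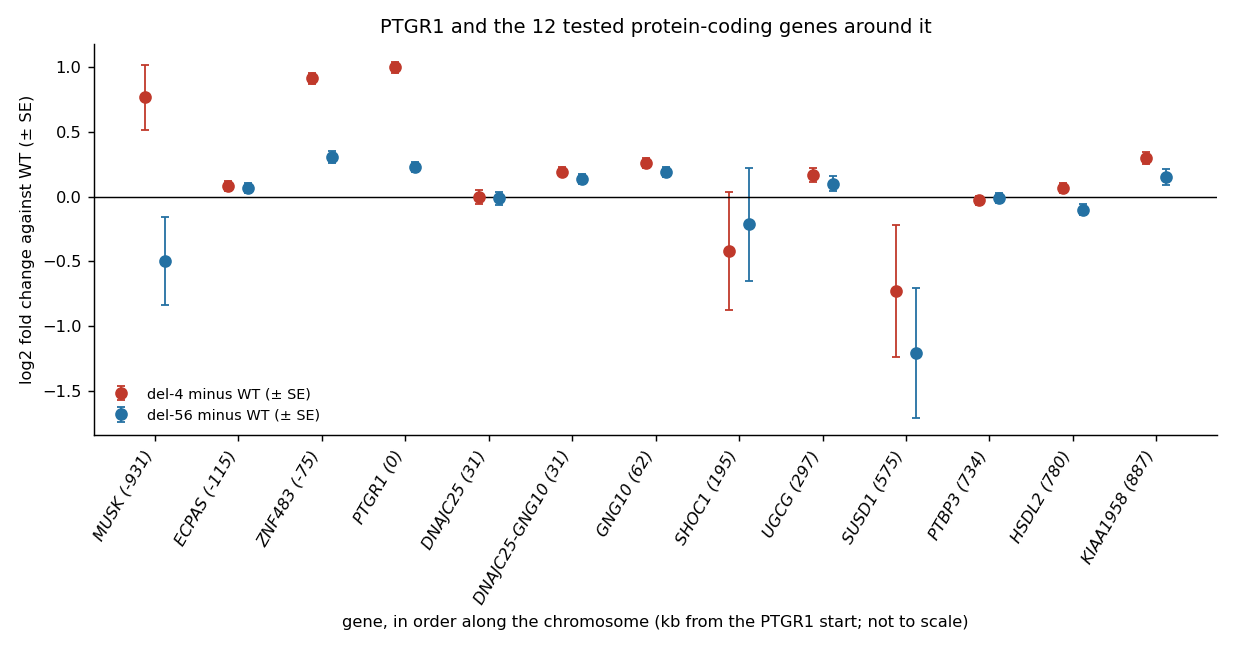
Log2 fold change against WT (y axis, with SE) of *PTGR1* and the 12 tested protein-coding genes with a start within 1 Mb, in order along the chromosome (x axis, with the distance of starts in kb), in del-4 and del-56. *ZNF483*, whose span overlaps that of *PTGR1*, is the only neighbour close to *PTGR1* in both clones, and *MUSK* at 0.77 in del-4 is a gene of low counts.

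Of 10 genes of the NRF2 control machinery, 4 were called higher and 3 lower in del-4, and 4 higher and 4 lower in del-56, with medians of 0.067 and -0.015. Over all tested genes, the shares called higher and lower were 20.5% and 20.2% for del-4 and 19.2% and 20.5% for del-56. Between del-4 and del-56, 2 were called, *RBX1* and *SQSTM1*, where 19.9% of all genes were. The call of *RBX1* was lost without replicate 1 (limma adjusted p = 0.190) or 3 (0.088) of del-4, or 1 (0.0888) or 3 (0.121) of del-56, with the same total (0.138) and with quantile normalization (0.0577), and *MAFG* was called as well without replicate 1 of del-56 (0.0386). *RBX1*, the ring subunit of the ligase that degrades NRF2, had normalized counts of 7889, 7293 and 7419.8 in del-4, 6663, 7137 and 6809.9 in del-56 and 9048, 8720.4 and 8902 in WT. It fell in both deletion clones, by 0.24 in del-4 (SE 0.039, limma adjusted p = 8.2e-05) and by 0.37 in del-56 (SE 0.040, limma adjusted p = 2.1e-06) on the log2 scale. *MAFG*, a small MAF partner of NRF2, rose in both, by 0.35 (SE 0.048, limma adjusted p = 1.1e-05) and 0.22 (SE 0.055, limma adjusted p = 0.0046). *MAFG* shares 3054 of its 9466 bases with *SIRT7*, and reads on the shared stretch cannot be assigned to either gene. Mean normalized counts of *SIRT7* were 3213 (WT), 3627 (del-56) and 3933 (del-4), beside 3436, 4007 and 4379 for *MAFG*. The part of *SIRT7* in the rise of *MAFG* was not tested. *SQSTM1*, which encodes the autophagy receptor p62 that competes with NRF2 for KEAP1 and is itself an NRF2 target, had normalized counts of 49136, 45449.7 and 49275 in del-4, 36814, 34348 and 34197 in del-56 and 39451, 41768 and 41266 in WT. Its libraries were in the order del-4, WT, del-56 with no overlap, as those of *SLC7A11* were. It was up by 0.23 in del-4 (SE 0.040, limma adjusted p = 0.00013) and fell by 0.22 in del-56 (SE 0.041, limma adjusted p = 0.00048) on the log2 scale. *SQSTM1* shares part of its span with *MRNIP* and *MGAT4B*.

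A wider list of 34 known NRF2 targets, 33 of which were found and tested, was called mostly lower in del-56. In del-4, 10 were called higher and 5 lower, with a median of 0.043 on the log2 scale, where 20.5% of all genes were called higher and 20.2% lower, so the share called in either direction was near the background of 40.7%. In del-56, 4 were called higher and 19 lower, with a median of -0.16, where 19.2% of all genes were called higher and 20.5% lower. Del-4 was called above del-56 in 19 of the 33 and below it in 0, where 10.9% of all genes were called higher. The median difference was 0.26, and -0.0026 over all tested genes. With libraries rescaled to the same total, 7 were called higher and 9 lower in del-4. Between del-4 and del-56, 18 were then called higher in del-4 and 0 lower. Over all genes, this rescaling called 2364 of 17391 higher and 4932 lower in del-4. Between del-4 and del-56 it called 1378 of 17444 higher and 2379 lower.

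The genes of carbonyl and quinone reduction held the largest called differences of the list, and these were in del-56. Of 12 genes, 9 were called lower and 0 higher in del-56, whereas 1 was called higher and 1 lower in del-4. Of all tested genes, 20.5% were called lower in del-56 and 40.7% in either direction in del-4. *AKR1C2*, which encodes a ketosteroid reductase, had normalized counts of 1283, 795 and 1039 in del-4, 221, 285 and 240.1 in del-56 and 906, 915 and 1002 in WT. Its fall in del-56 was 1.92 on the log2 scale (SE 0.12, limma adjusted p = 3.8e-09), a 3.79-fold lower level, and its value in del-4 was 0.12 (SE 0.12, limma adjusted p = 0.49), or 0.30 without replicate 2 of del-4 (limma adjusted p = 0.0279). *AKR1C1*, a close relative, had a value of -1.75 in del-56 (SE 0.21, limma adjusted p = 5.8e-06) and had a value of 0.20 in del-4 (SE 0.17, limma adjusted p = 0.38). *AKR1C3*, which reduces androgen precursors and was named after its values were seen, fell by 1.66 in del-56 (SE 0.23, limma adjusted p = 3.0e-05). Its value in del-4 was -0.33 (SE 0.19, limma adjusted p = 0.20). The AKR1C genes are nearly identical in sequence, so reads may have been split or exchanged among them. *ALDH3A1*, an aldehyde dehydrogenase gene, was low throughout, at 44.2, 49.8 and 54.2 in del-4, 9.54, 26.1 and 12.1 in del-56 and 54.1, 57.9 and 76.4 in WT, and fell by 2.02 in del-56 on the log2 scale (SE 0.41, limma adjusted p = 0.00093). *EPHX1*, the microsomal epoxide hydrolase gene, which was also named after its values were seen, was the gene called higher in del-4, with 0.40 (SE 0.036, limma adjusted p = 9.1e-08), and had a value of -0.24 in del-56 (SE 0.037, limma adjusted p = 8.2e-05).

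**Figure D4:**
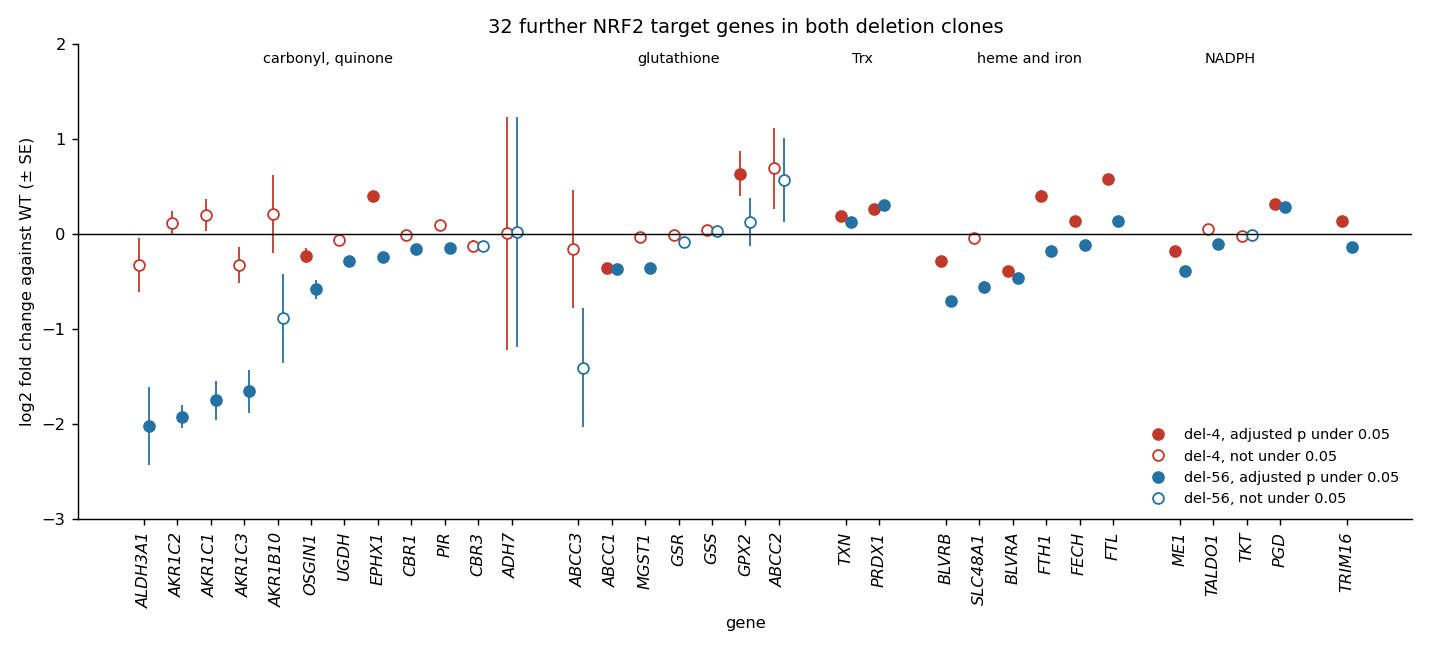
Log2 fold change against WT (y axis, with SE) of 32 of the further NRF2 targets (x axis), grouped by role and ordered within each role by the value in del-56; filled points had an adjusted p under 0.05 (limma). The del-56 points of *ALDH3A1*, *AKR1C2*, *AKR1C1* and *AKR1C3* lie between -2.02 and -1.66, whereas the del-4 points of these genes are open and lie between -0.33 and 0.20.

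Among 7 further glutathione genes, 1 was called higher and 1 lower in del-4, and 0 were called higher and 2 lower in del-56. Of all genes, 40.7% and 39.7% were called in either direction. *ABCC1*, an exporter of glutathione conjugates on chromosome 16, was lower in both, with -0.36 in del-4 (SE 0.039, limma adjusted p = 7.7e-07) and -0.37 in del-56 (SE 0.044, limma adjusted p = 5.3e-06), beside medians of -0.36 and -0.26 for the genes within 5 Mb. *MGST1*, a membrane glutathione transferase gene, had a value of -0.04 in del-4 (SE 0.038, limma adjusted p = 0.50) and fell by 0.35 in del-56 (SE 0.043, limma adjusted p = 6.9e-06). With the same total its value in del-4 was -0.10 and was called (limma adjusted p = 0.0213), and 60888 of the 262118 bases of its span are shared with *LMO3*. *GPX2*, a glutathione peroxidase gene, had normalized counts of 111, 97.6 and 108 in del-4, 68.7, 74.3 and 78.8 in del-56 and 77.3, 58.9 and 67.9 in WT. The del-4 libraries were above the others, with a log2 fold change of 0.64 (SE 0.23, limma adjusted p = 0.038). This was lost without any single del-4 library (adjusted p between 0.0524 and 0.103), WT replicate 2 (0.118) or WT replicate 3 (0.0743), without the filter (0.0523) and with the same total (0.0588). *GPX2* lies wholly within the spans of *CHURC1* and *CHURC1-FNTB*, whose mean normalized counts over the 9 libraries were 6893 and 11965, and their reads cannot be told apart.

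Both thioredoxin genes on the list rose in both clones. *PRDX1*, a peroxiredoxin gene, rose by 0.26 in del-4 (SE 0.048, limma adjusted p = 0.00027) and 0.30 in del-56 (SE 0.051, limma adjusted p = 0.00019), beside medians of 0.22 and 0.26 for the genes within 5 Mb. With quantile normalization its value was 0.068 in del-4 (limma adjusted p = 0.101) and 0.18 in del-56 (limma adjusted p = 0.000812), and del-4 was called below del-56 by 0.11 (limma adjusted p = 0.0265). *PRDX1* shares 2469 bases with *MMACHC*, whose mean normalized count over the 9 libraries was 32861. *TXN*, the thioredoxin gene, rose by 0.19 (SE 0.038, limma adjusted p = 0.00052) and 0.12 (SE 0.041, limma adjusted p = 0.023), the latter lost without replicate 2 (adjusted p = 0.0709) or 3 (0.126) of del-56, or 2 (0.0956) or 3 (0.117) of WT, and with the same total (0.0563). The rise of *TXN* in del-4 was 0.12 with the same total (limma adjusted p = 0.00769).

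The heme and iron genes moved in both directions in del-4. Of 6 genes, 3 were called higher and 2 lower in del-4, and 1 was called higher and 5 lower in del-56. Over all genes, 40.7% and 39.7% were called in either direction. *FTL*, the ferritin light chain gene, had normalized counts of 29942, 27587 and 29676 in del-4, 21934, 20233 and 21769.6 in del-56 and 20579.9, 19126 and 18557 in WT. It rose by 0.58 in del-4 (SE 0.043, limma adjusted p = 5.2e-09) and by 0.13 in del-56 (SE 0.045, limma adjusted p = 0.025), the latter lost without replicate 1 (adjusted p = 0.0569) or 3 (0.110) of del-56, or 2 (0.0981) or 3 (0.139) of WT, and with the same total (0.0551). The heavy chain gene *FTH1*, named after its values were seen, rose by 0.41 in del-4 (SE 0.054, limma adjusted p = 8.5e-06) and fell by 0.18 in del-56 (SE 0.048, limma adjusted p = 0.0063). With quantile normalization its values were 0.21 (limma adjusted p = 0.000748) and -0.28 (limma adjusted p = 0.000111). *FTH1* shares 5798 of its 7917 bases with *BEST1*, and ferritin genes have many processed copies in the genome, so their counts are uncertain. *BLVRB*, a biliverdin reductase gene that acts after heme oxygenase, was lower in both, with -0.28 in del-4 (SE 0.045, limma adjusted p = 6.2e-05) and -0.70 in del-56 (SE 0.040, limma adjusted p = 1.6e-09). *SLC48A1*, a heme transporter gene, had a value of -0.04 in del-4 (SE 0.047, limma adjusted p = 0.49) and fell by 0.56 in del-56 (SE 0.061, limma adjusted p = 2.5e-06), and shares 17125 of its 28836 bases with *RAPGEF3*.

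Of the enzymes that supply the NADPH used by PTGR1, NQO1 and TXNRD1, *PGD* rose in both, by 0.31 (SE 0.037, limma adjusted p = 2.1e-06) and 0.29 (SE 0.037, limma adjusted p = 1.3e-05), beside medians of 0.20 for its neighbours within 5 Mb in both clones. Malic enzyme, *ME1*, fell by 0.18 in del-4 (SE 0.038, limma adjusted p = 0.00074) and by 0.39 in del-56 (SE 0.042, limma adjusted p = 2.1e-06). *TRIM16*, an NRF2-dependent ubiquitin ligase gene, differed by 0.14 in del-4 (SE 0.047, limma adjusted p = 0.028) and -0.13 in del-56 (SE 0.040, limma adjusted p = 0.013), but the call in del-4 was lost without any single library except replicate 2 of del-4 (adjusted p between 0.0531 and 0.163) and with the same total, where the value was 0.068 (0.274), and that in del-56 without replicate 3 of del-56 (0.0633) or of WT (0.0720). It shares 23694 of its 56352 bases with the gene model ENSG00000251537, whose mean normalized count over the 9 libraries was 5861.

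*SLC7A11*, the member most like *PTGR1* by the root mean square difference, was higher than WT in del-4 but lower in del-56. It is also a target of ATF4, the transcription factor of the amino acid response, whose part in these values was not tested. For this reason 10 ATF4 targets were examined. In del-4, 6 were called higher and 2 lower, with a median of 0.23 on the log2 scale, and in del-56, 2 were higher and 5 lower, with a median of -0.14, where 40.7% and 39.7% of all genes were called in either direction. Del-4 was called above del-56 in 9 of the 10 and below it in 0, where 10.9% of all genes were called higher. The median difference was 0.29. *CHAC1*, which encodes an enzyme that breaks down glutathione, had normalized counts of 3179.8, 2329.6 and 2921 in del-4, 1702, 1597 and 1496 in del-56 and 1550.1, 1659 and 1577 in WT. It rose by 0.80 in del-4 (SE 0.084, limma adjusted p = 4.5e-07) and had a value of 0.00 in del-56 (SE 0.067, limma adjusted p = 0.99). *ATF3*, a stress-induced transcription factor gene, fell by 0.42 in del-4 (SE 0.053, limma adjusted p = 3.9e-06) and by 0.73 in del-56 (SE 0.051, limma adjusted p = 1.9e-08). *SLC7A5*, a neutral amino acid transporter gene on chromosome 16, fell by 0.63 (SE 0.076, limma adjusted p = 2.6e-06) and 0.80 (SE 0.094, limma adjusted p = 5.4e-06), beside medians of -0.49 and -0.32 for its neighbours within 5 Mb.

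*PTGR1* also acts in the breakdown of prostaglandins and leukotrienes, and 8 of the 10 listed eicosanoid genes could be tested. In del-4, 2 were called higher and 2 lower, and in del-56, 3 were called higher and 4 lower. Of all genes, 40.7% and 39.7% were called in either direction. *HPGD*, which encodes the dehydrogenase that precedes PTGR1 in prostaglandin breakdown, had normalized counts of 638, 781 and 615 in del-4, 677, 803 and 783 in del-56 and 1064, 1131 and 994 in WT. It fell by 0.65 in del-4 (SE 0.097, limma adjusted p = 2.8e-05) and by 0.50 in del-56 (SE 0.090, limma adjusted p = 0.00037). The *PTGR1* counts were above WT in both clones, but in del-56 they include reads shared with *ZNF483*, so a rise of *PTGR1* itself is not established there. *PTGES*, a prostaglandin E synthase gene, was low, at 11.5, 0 and 0 in del-4, 24.8, 12.05 and 14.6 in del-56 and 46.4, 75.3 and 56.6 in WT. All libraries of the deletion clones were below WT, with a log2 fold change of -1.77 in del-56 (SE 0.39, limma adjusted p = 0.0016) and of -4.67 in del-4 (SE 0.79, limma adjusted p = 0.00011), where it was -3.09 with a pseudocount of 5 (limma adjusted p = 1.3e-05) and the adjusted p in DESeq2 was 0.0657. The call in del-56 was lost in the joint fit of all 9 libraries (limma adjusted p = 0.0664). *PTGS1*, a cyclooxygenase gene, was also low, at 44.2, 33.9 and 52.2 in del-4, 57.2, 106 and 75.2 in del-56 and 11.6, 32.8 and 26.4 in WT. It rose by 1.78 in del-56 (SE 0.40, limma adjusted p = 0.0019) and had a value of 0.95 in del-4 (SE 0.41, limma adjusted p = 0.077), which was 0.52 without WT replicate 1 (limma adjusted p = 0.298), 1.24 without WT replicate 2 (limma adjusted p = 0.0462) and 1.116 with quantile normalization (limma adjusted p = 0.0414).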

How the data were processed

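RNA-seq was measured in 9 libraries, 3 cultures each of del-4, del-56 and WT, grouped by clone. The authors trimmed reads with Trim Galore 0.6.5, aligned them to GRCh38 with STAR (2.71a in the submitters' processing notes) and counted them on protein-coding genes of GENCODE version 38 with multicov of bedtools 2.27.1. The deposited signal values are counts normalized by the authors with DESeq2 size factors. In each library, 100% of the values were whole multiples of what 1 read is worth, within 1e-04 of a read, and between 81.5% and 85.1% of the low values were even, since both mates of a pair were counted. Whole reads were recovered from these steps. Of 19984 identifiers, 19923 were matched to symbols, and positions are from GENCODE version 44, so spans may differ from those counted.

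Values plus a pseudocount of 1 were taken to log2 and compared with limma 3.58.1 (variance trend, R 4.3.3) for genes averaging 1 or more across the 6 libraries compared, with Benjamini-Hochberg adjustment over all genes, and called at an adjusted p under 0.05. No p is given for *PTGR1*, which was selected on its values. Fold changes are on the log2(value + 1) scale. Results were recomputed with a pseudocount of 0.5 or 5, without the filter or with a minimum of 10, after rescaling to the same total or quantile normalization, in a joint fit of the 9 libraries, with a replicate block, with edgeR 4.0.16 and DESeq2 1.42.0 on the recovered reads, and without each library. The steps were tested on simulated data.

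The members and lists were chosen with earlier results of these data known. Named from the lists were, per role, up to 3 genes with the largest absolute log2 fold change against WT in either clone, among those with an overall mean of at least 10 and an adjusted p under 0.05 in that comparison. The 5 genes most like *PTGR1* and its neighbours were named by the rules in the text, and exceptions are stated there. *EPCART* itself and protein levels were not analysed here, and the single values of some listed genes are not reported here.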

Additional observations from a re-analysis of the deposited data

Results flagged for a closer look

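The genes below passed an adjusted p under 0.05 (limma) in the direct comparison of both deletion clones with each other, in which the WT libraries were not used. The values are log2 differences, del-4 minus del-56. In the NRF2 group, *SLC7A11* differed by 0.812, *NQO1* by 0.794, *HMOX1* by 0.342, *TXNRD1* by 0.308, *KEAP1* by 0.207, *SRXN1* by 0.201 and *GCLC* by -0.403. In the control machinery, *SQSTM1* differed by 0.449 and *RBX1* by 0.133. The calls of *HMOX1* and *RBX1* were lost without certain single libraries, as given above. That of *RBX1* was also lost with the same total and with quantile normalization. Among the genes of carbonyl and quinone reduction, *AKR1C2* differed by 2.04, *AKR1C1* by 1.95 and *ALDH3A1* by 1.69. Among the other NRF2 targets, *SLC48A1* differed by 0.515, *FTL* by 0.448, *BLVRB* by 0.423, *MGST1* by 0.318, *TRIM16* by 0.272 and *ME1* by 0.208. Among the ATF4 targets, *CHAC1* differed by 0.803 and *ATF3* by 0.306. Of the eicosanoid genes, *PTGES* differed by -2.9, a value on low counts that edgeR (adjusted p = 0.193) and DESeq2 (adjusted p = 0.149) did not call, that was -1.53 with a pseudocount of 5 (limma adjusted p = 0.0313), and that was lost with a minimum mean of 10 (limma adjusted p = 0.0513), without any library of del-56 (limma adjusted p between 0.0646 and 0.115) or without replicate 2 (0.103) or 3 (0.122) of del-4.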

How the results depend on the processing

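Each group was 1 clone with 3 cultures, so small differences rest on few libraries. Over the alternatives without a library left out, 3 to 5 of the 9 members were called in del-4, 6 to 8 in del-56 and 7 between del-4 and del-56, and of the 33 further targets 14 to 16, 19 to 23 and 18 to 19. With 1 library left out, the members called were 3 to 4, 6 to 8 and 6 to 7, and the further targets 12 to 14, 19 to 23 and 17 to 19. Before any of these changes, 40.7%, 39.7% and 19.9% of all tested genes were called in the 3 comparisons, in the same order. For *PTGR1*, the log2 fold change ranged from 0.93 to 1.04 (del-4) and from 0.20 to 0.25 (del-56).

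Some values near 0 changed sign, none of them called. With the same total, the value of *KEAP1* in del-4 was -0.041 in place of 0.028, that of *CHAC1* in del-56 -0.027, and those between del-4 and del-56 were -0.027 for *ABCC1* and -0.017 for *PGD*. Quantile normalization gave -0.0011 for *ABCC1* and -0.025 for *PGD*. With 1 library left out, *NQO1* in del-4 ranged from -0.0746 to 0.044 (above 0 without del-4 replicate 2), *AKR1C2* from -0.049 (without del-4 replicate 1) to 0.30 and *MGST1* from -0.060 to 0.0039 (without WT replicate 1). Those of del-56 ranged from -0.0475 to 0.044 for *TXNRD1* (above 0 without del-56 replicate 1) and from -0.045 to 0.048 for *CHAC1* (below 0 without del-56 replicate 1, WT replicate 1 or WT replicate 3). Between the deletion clones, *ABCC1* ranged from -0.015 (without del-56 replicate 3) to 0.045 and *PGD* from -0.00071 (without del-4 replicate 3) to 0.045.

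With the replicate number as a block, 3 members were called in del-4, 6 in del-56 and 7 between del-4 and del-56. Over all 17481 genes tested in del-56, 2868 were called higher and 3167 lower with the block, against 3358 and 3580 without it. *HMOX1* in del-4 (adjusted p = 0.062), *NFE2L2* (0.0703), *GCLM* (0.0574), *TXN* (0.0787) and *FTH1* (0.0554) in del-56 and *RBX1* between del-4 and del-56 (0.053) lost their calls in limma. Whether the numbers pair the samples was not settled by the values. The deviations of same-numbered libraries correlated at between -0.053 and 0.063, and those of different-numbered libraries at between -0.054 and 0.044. Between del-4 and del-56, same-numbered libraries had 0.063, 0.029 and 0.056, and different-numbered ones lay between -0.051 and -0.0080. Same-numbered libraries had 0.049, 0.051 and 0.023 between del-4 and WT, and -0.00047, -0.053 and -0.034 between del-56 and WT. The deviations were centred within each clone, so the values of different-numbered libraries are not independent of those of same-numbered ones. Over all alternatives and the 9 tested members, 403 values kept their direction and their side of the threshold, 24 lost a call, 2 gained one and 3 changed sign.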
